A study of Sus scrofa with 18 samples.

Results

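The 9 genes described here belong to the NRF2 antioxidant and detoxification pathway: NFE2L2, KEAP1, NQO1, GCLC, GCLM, TXNRD1, HMOX1, GPX2 and SRXN1. They were chosen by gene symbol, and all 9 were found among the 27339 genes of a table of read counts from pig tissue. All 9 also passed the filter on low counts, which 12895 genes passed. The 18 messenger RNA libraries form 6 groups of 3, by genotype and tissue label. The double knock-in (DIK) line carries elements of the doxycycline-controlled Tet-on system and of the phiC31 integrase system, and the gene that doxycycline switches on is not named in the labels. DIK founders and age-matched wild-type (WT) pigs both began doxycycline when 7 months old, and their tissue was collected 8 months after this induction. The 9 DIK libraries are tumours from the nose, mouth and scrotum of 1 of 3 treated founders. The 9 WT libraries are normal tissue under the same labels, and the labels do not say how many WT animals they came from. P-values therefore speak only for the spread among these libraries, which may be technical, and the genotype, the animal and the step from normal tissue to tumour cannot be told apart.

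NRF2, the product of NFE2L2, is a transcription factor that is kept scarce in unstressed cells because KEAP1 holds it and presents it to a ubiquitin ligase built on CUL3. Oxidants and electrophiles modify KEAP1, NRF2 then escapes degradation, enters the nucleus and pairs with small MAF proteins on antioxidant response elements. Its targets make glutathione, reduce peroxides and quinones, recycle thioredoxin and break down heme, and the pathway is known for its part in squamous epithelium and its tumours. Because NRF2 is controlled largely at the protein level, messenger RNA of NFE2L2 and KEAP1 does not measure its activity.

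Levels are given as CPM, the reads of a gene scaled to equal library totals with TMM factors, and differences are log2 values of DIK minus WT ± SE from edgeR's quasi-likelihood test. A gene was called, and is said to have risen or fallen, at a Benjamini-Hochberg adjusted p under 0.05. Total counts ran from 418665 in WT nose replicate 1 to 5041470 in WT nose replicate 3, and 3 counts corresponded to 0.483 to 5.76 CPM. Tissue makeup differed strongly between the genotypes: the summed level of 6 squamous epithelium markers was 33700 to 76900 CPM in DIK libraries and 54.4 to 12500 CPM in WT libraries. The sum of 8 skeletal muscle markers was 98300 to 299000 CPM in WT nose and scrotum libraries, 1230 to 3690 CPM in WT mouth libraries and at most 933 CPM in DIK libraries. WT mouth libraries were instead rich in smooth muscle markers, whose 6 genes summed to 41500 to 73600 CPM. That sum was 4530 to 6300 CPM in WT nose, 1930 to 10500 CPM in WT scrotum and at most 341 CPM in DIK libraries. The mouth and scrotum labels went against position genes. Posterior HOX genes, a list of 14 added with earlier results of these data known, summed to 42.2 to 70.8 CPM in WT mouth and 2.52 to 4.26 CPM in WT scrotum libraries, and to 10.8 to 18.9 CPM in DIK mouth and 0.625 to 3.63 CPM in DIK scrotum libraries. Groups were kept as labelled, and a label below names a group of libraries, not an anatomical site.

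Across the 9 genes, GPX2, NFE2L2, GCLC, GCLM, HMOX1 and SRXN1 rose in DIK tumours when the difference was averaged over the 3 labels, KEAP1 fell, and NQO1 and TXNRD1 were not called. The averaged call of SRXN1 was lost in most alternatives and that of GCLM in several. The genes that rose were not the same at each label: NFE2L2 and GPX2 at the nose label, NFE2L2, GCLM and GPX2 at the mouth label, and GCLC, HMOX1 and SRXN1 at the scrotum label, where KEAP1 fell. Because the samples are bulk tissue, fewer cells of a type and less RNA per cell cannot be told apart in any of these differences.

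These counts have to be read against a background in which much of the transcriptome differed. In the nose comparison 42.1% of all tested genes were called, 21.9% higher and 20.1% lower, and 2 of 9 members rose and 7 were not called. In the mouth comparison 46.9% of genes were called, 22.7% higher and 24.3% lower, and 3 members rose and 6 were not called. Higher calls there were 48.2% of all calls, and 36.1% with scaling by library size alone, which moved the median difference of all genes to −0.29. In the scrotum comparison 43.5% of genes were called, 19.4% higher and 24% lower, and 3 members rose, 1 fell and 5 were not called. For the mean over labels the background was 64.1%, with 31.2% higher and 33% lower, against 6 members that rose and 1 that fell. The share of members called, 22.2% at the nose label, 33.3% at the mouth label and 44.4% at the scrotum label, was thus below the background at the first 2 labels and close to it at the scrotum label. The median log2 difference of the members was 0.93 at the nose label, 0.78 at the mouth label, 0.01 at the scrotum label and 0.52 for the mean over labels, beside 0.03, −0.04, −0.09 and −0.04 over all tested genes. DIK and WT libraries did not overlap for 5 of 9 members at the nose label, where this held for 54.3% of all genes. They did not overlap for 3 of 9 members at the mouth label and 3 at the scrotum label, beside 58.7% and 51.2% of all genes.

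**Figure D1:**
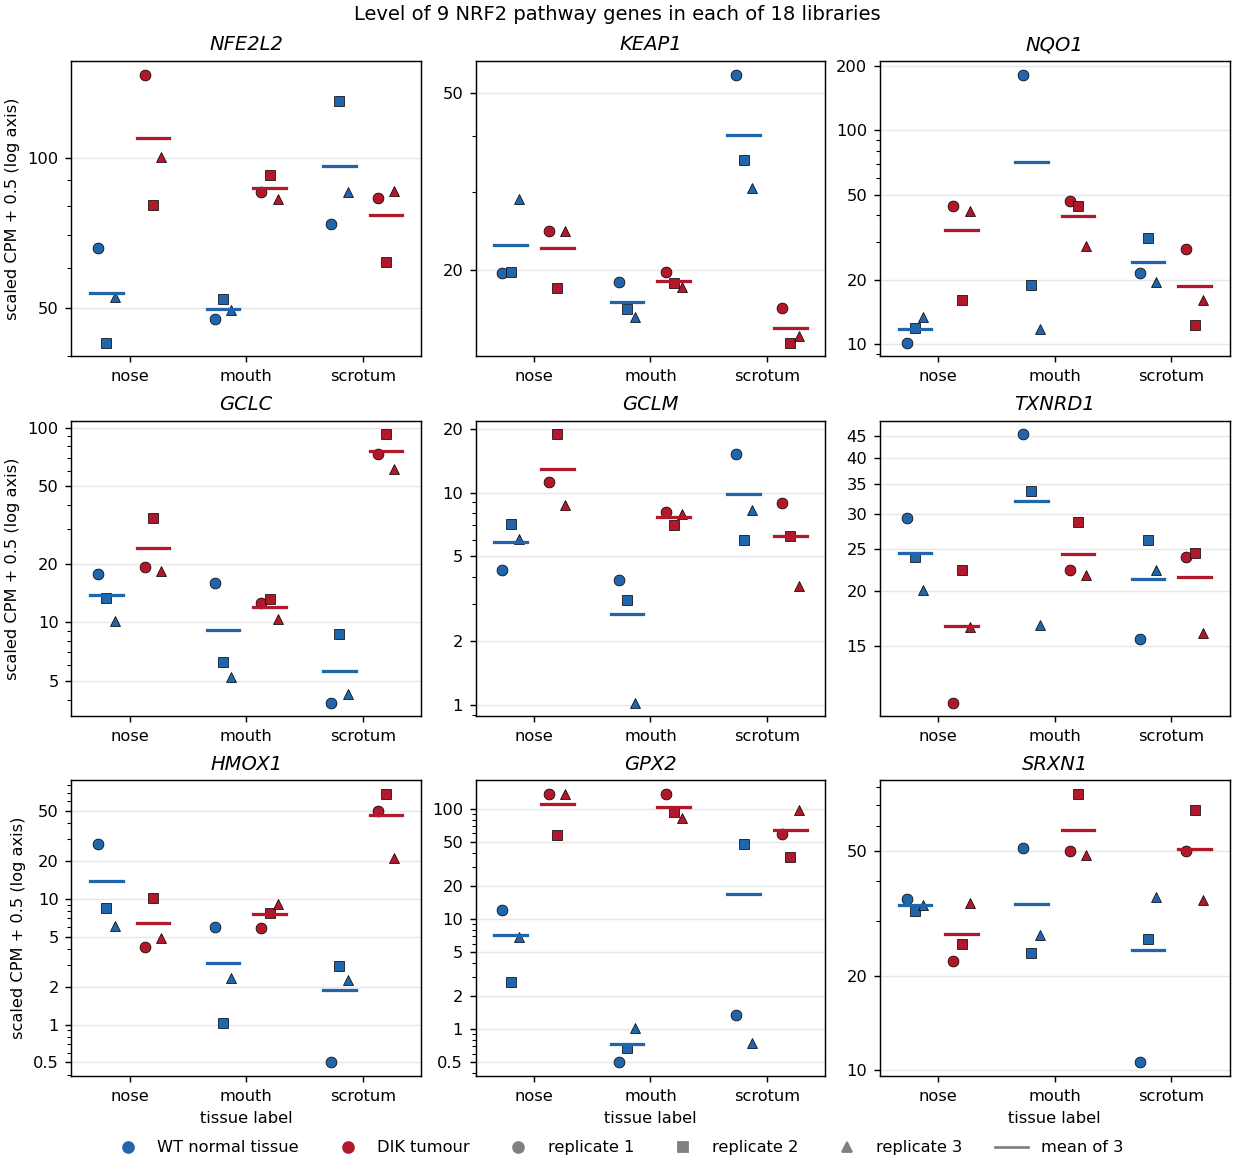
Level of each of the 9 genes in each of the 18 libraries (scaled CPM + 0.5, log axis) by tissue label, with WT normal tissue in blue, DIK tumours in red, marker shapes for replicates and a bar for the mean of 3. GPX2 in DIK tumours lies between 36.5 and 136 CPM at every label, and the 3 DIK libraries of the scrotum label are the highest of the series for GCLC but not for HMOX1, where WT nose replicate 1 (26.9 CPM) lies above DIK scrotum replicate 3 (20.6 CPM).

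NFE2L2, which encodes NRF2 itself, was higher in DIK tumours at 2 labels. In nose libraries NFE2L2 was at 146, 80.0 and 99.9 CPM in the DIK libraries and 65.3, 42.0 and 52.1 CPM in the WT libraries. In mouth libraries it was at 84.8, 91.8 and 82.1 CPM in DIK and 47.0, 51.6 and 49.0 CPM in WT libraries. All DIK libraries lay above all WT libraries at both labels, with DIK nose replicate 1 well above the others. NFE2L2 rose by 1.05 ± 0.28 at the nose label (adjusted p = 0.00611) and by 0.81 ± 0.28 at the mouth label (adjusted p = 0.0224). In scrotum libraries it was at 82.4, 61.1 and 85.0 CPM in DIK and 73.0, 129 and 84.8 CPM in WT libraries. There the groups overlapped, WT replicate 2 was the highest, and the difference of −0.33 was not called. Without DIK nose replicate 1 the nose difference of NFE2L2 was 0.76 (adjusted p = 0.0529). The mouth call of NFE2L2 was lost without DIK mouth replicate 2 (adjusted p = 0.0612), WT mouth replicate 1 (0.0642) or WT mouth replicate 3 (0.0549), without a filter on low counts (0.0643), and with scaling by library size alone (0.57, adjusted p = 0.179).

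KEAP1, the sensor and adaptor that keeps NRF2 low, fell at the scrotum label and was close to level elsewhere. Its scrotum-label levels were 15.9, 13.2 and 13.8 CPM in DIK and 54.5, 34.8 and 30.1 CPM in WT libraries. The groups were far apart there, and the WT scrotum libraries had the highest KEAP1 levels of the series. KEAP1 fell by 1.46 ± 0.26 on the log2 scale (adjusted p = 0.000212), a call kept with any single library left out. In nose libraries KEAP1 was at 24.0, 17.8 and 24.0 CPM in DIK and 19.2, 19.4 and 28.4 CPM in WT libraries, and at the mouth label at 19.3, 18.2 and 17.9 CPM in DIK and 18.3, 15.9 and 15.2 CPM in WT libraries. The groups overlapped at both labels, with differences of −0.06 ± 0.26 and 0.16 ± 0.25. Averaged over labels KEAP1 fell by 0.45 ± 0.15 (adjusted p = 0.0125), with the difference at the scrotum label far from the near-zero ones at the other labels.

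GCLC and GCLM encode the catalytic and the modifier subunit of glutamate-cysteine ligase, the rate-limiting step of glutathione synthesis. No single label had both called. Their differences were both above 0 at the nose and mouth labels and had opposite signs at the scrotum label. GCLC at the scrotum label was at 72.7, 91.9 and 60.6 CPM in DIK and 3.36, 8.15 and 3.76 CPM in WT libraries. Every DIK library lay far above every WT library, and these 3 were the highest GCLC levels of the series. GCLC rose by 3.83 ± 0.45 (adjusted p = 2.53e-06), a call kept with any single library left out. GCLC at the nose label was at 18.7, 33.9 and 17.7 CPM in DIK and 17.3, 12.8 and 9.62 CPM in WT libraries. DIK libraries were all above WT libraries by a narrow margin, and the difference of 0.93 ± 0.43 was not called (adjusted p = 0.0913). GCLC at the mouth label was at 12, 12.6 and 9.86 CPM in DIK and 15.5, 5.75 and 4.72 CPM in WT libraries. WT mouth replicate 1 lay above all DIK libraries, and the difference of 0.39 ± 0.41 was not called. Without that library the mouth difference of GCLC was 1.08 (adjusted p = 0.0296), and the nose difference was then 0.91 (adjusted p = 0.0388).

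GCLM at the mouth label was at 7.59, 6.56 and 7.46 CPM in DIK and 3.38, 2.61 and 0.525 CPM in WT libraries. The groups did not overlap, and GCLM rose by 1.64 ± 0.49 (adjusted p = 0.0109), a call kept with any single library left out. The WT mouth libraries held 38 counts of GCLM together, and WT mouth replicate 3 was below its level of 3 counts (0.787 CPM). GCLM in nose libraries was at 10.7, 18.3 and 8.19 CPM in DIK and 3.84, 6.57 and 5.56 CPM in WT libraries. All DIK libraries were higher, WT nose replicate 1 was below its level of 3 counts (5.76 CPM), and the difference of 1.12 ± 0.49 missed the threshold (adjusted p = 0.0742). GCLM in scrotum libraries was at 8.38, 5.72 and 3.13 CPM in DIK and 14.7, 5.50 and 7.77 CPM in WT libraries. The groups overlapped and the difference was −0.58, so that GCLM was not called at the label where GCLC rose most. GCLM averaged over labels rose by 0.72 ± 0.28 (adjusted p = 0.0304), and this call was lost without DIK nose replicate 2 (0.0732), DIK scrotum replicate 1 (0.0905) or WT nose replicate 3 (0.0562), and in 6 of 12 other settings.

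GPX2, a glutathione peroxidase of epithelial cells, had the largest difference of the 9 genes. GPX2 in mouth libraries was at 135, 93.5 and 81.8 CPM in DIK and 0, 0.174 and 0.525 CPM in WT libraries. The DIK libraries held 1120 counts and the WT libraries 3, a ratio of scaled levels of 534 with an exact 95% counting interval of 182 to 2590, which covers counting error only. The fitted difference was 8.82 ± 1.66 (adjusted p = 0.000774), and its size depends on the prior count. In nose libraries GPX2 was at 136, 57.6 and 135 CPM in DIK and 11.5, 2.19 and 6.41 CPM in WT libraries. No libraries overlapped and GPX2 rose by 4.29 ± 1.28 (adjusted p = 0.016), a call lost without WT nose replicate 2 (adjusted p = 0.0746) or WT nose replicate 3 (0.0637).

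At the scrotum label GPX2 was at 58.4, 36.5 and 97.5 CPM in DIK and 0.839, 47.7 and 0.251 CPM in WT libraries. WT scrotum replicate 2 lay within the DIK range while the other WT libraries were near 0, and the difference of 1.92 ± 1.07 was not called (adjusted p = 0.166). In the same 3 WT libraries the 6 squamous markers summed to 1010, 12500 and 54.4 CPM, with none of the 6 at 0 in the group and KRT5 the most abundant. KRT5 alone was at 12000 CPM in replicate 2. TP63, DSG3, CRNN and IVL were also highest in replicate 2, but KRT4 was lowest there (13, 2.45 and 6.02 CPM). WT scrotum replicate 2 was thus the highest in both GPX2 and the squamous sum, and the part of squamous epithelium in the level of GPX2 was not tested. Without that library GPX2 rose by 6.95 at the scrotum label (adjusted p = 2.25e-06).

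**Figure D2:**
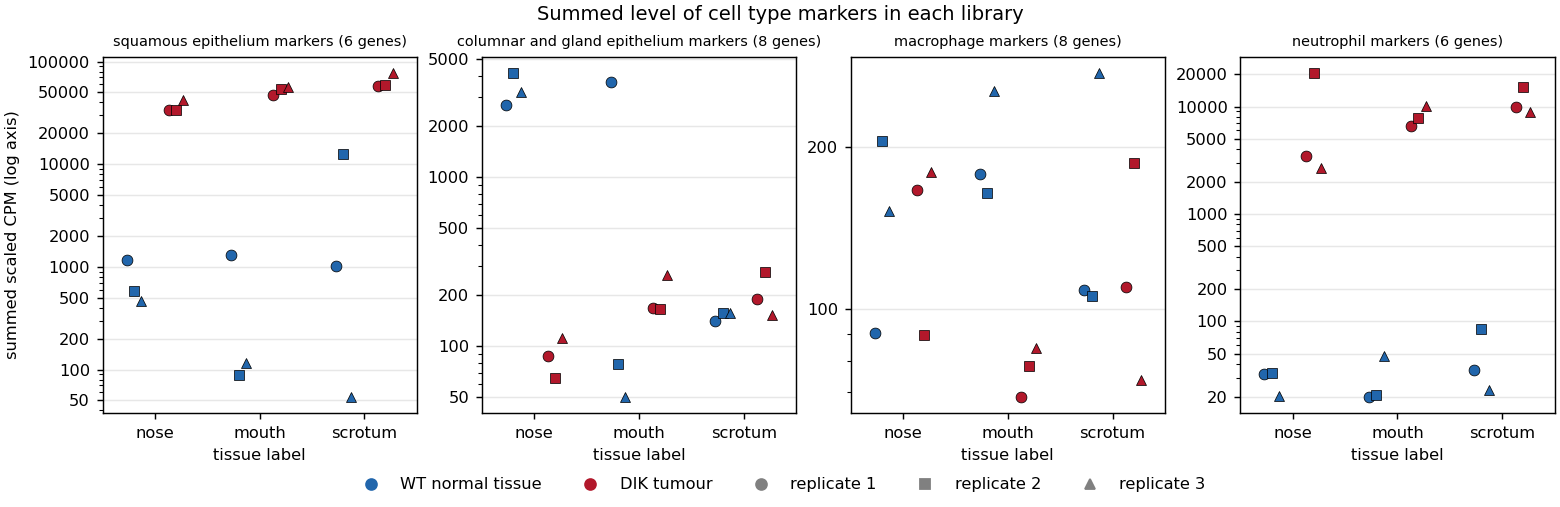
Summed level of markers of squamous epithelium (6 genes), columnar and gland epithelium (8), macrophages (8) and neutrophils (6) in each library (scaled CPM, log axis), by tissue label, genotype (colour) and replicate (shape). The squamous sum of WT scrotum replicate 2 (12500 CPM) and the columnar and gland sum of WT mouth replicate 1 (3650 CPM) stand apart from the other libraries of their groups. The squamous sum of WT mouth replicate 1 (1300 CPM) also lies above those of replicates 2 and 3 (88.7 and 116 CPM).

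TXNRD1 encodes thioredoxin reductase, which keeps thioredoxin in its active form, and it was not called in any comparison of genotypes. It was at 10.7, 21.8 and 16.1 CPM in DIK nose and 28.8, 23.4 and 19.7 CPM in WT nose libraries. In mouth libraries TXNRD1 was at 21.8, 28.2 and 21.3 CPM in DIK and 44.9, 33.3 and 16.3 CPM in WT libraries, and at the scrotum label at 23.5, 24.0 and 15.6 CPM in DIK and 15.1, 25.7 and 21.8 CPM in WT libraries. The groups overlapped at all 3 labels. The differences of TXNRD1 were −0.52 ± 0.36, −0.41 ± 0.33 and 0.01 ± 0.34, and the sign at the scrotum label changed with the scaling and with the filter on low counts.

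SRXN1 encodes sulfiredoxin, which restores peroxiredoxins that hydrogen peroxide has over-oxidized. SRXN1 in scrotum libraries was at 49.5, 67.2 and 34.4 CPM in DIK and 10.1, 25.7 and 35.1 CPM in WT libraries. The lowest DIK library lay just under the highest WT library. SRXN1 rose there by 1.08 ± 0.39 (adjusted p = 0.0298), and the call was lost without DIK scrotum replicate 1 (0.0601), DIK scrotum replicate 2 (0.142) or WT scrotum replicate 1 (0.128), with library size alone (0.0789) and when only the groups compared were fitted (0.113). In mouth libraries SRXN1 was at 49.4, 75.5 and 48.0 CPM in DIK and 50.7, 23.2 and 26.5 CPM in WT libraries, with WT replicate 1 inside the DIK range and a difference of 0.78 ± 0.38 (adjusted p = 0.0965). In nose libraries it was at 21.8, 24.8 and 33.6 CPM in DIK and 34.5, 31.8 and 33.1 CPM in WT libraries, with overlapping groups and a difference of −0.30. The mean over labels of SRXN1, 0.52 ± 0.22, passed only narrowly (adjusted p = 0.0474). This call was lost with 12 of the 18 libraries left out in turn (adjusted p up to 0.104) and in 10 of 12 other settings, DESeq2 among them (0.49, adjusted p = 0.0705).

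NQO1, a quinone reductase often used as a readout of NRF2 activity, was not called in DIK against WT. NQO1 in mouth libraries was at 46.2, 43.7 and 28.3 CPM in DIK and 182, 18.5 and 11.3 CPM in WT libraries. WT mouth replicate 1 was the highest NQO1 library of the series, while the other WT mouth libraries lay below all 3 DIK libraries. The difference of NQO1 was −0.85 ± 0.76 with all libraries and 1.35 (adjusted p = 0.0136) without WT mouth replicate 1, so this library decides the direction. In the 3 WT mouth libraries the 8 columnar and gland markers summed to 3650, 79.0 and 50.4 CPM, with none at 0 in the group and KRT8 the most abundant. Not all 8 shared this excess: AGR2 was at 0.483, 0.174 and 0.787 CPM and WFDC2 at 0.644, 0.523 and 0.262 CPM. The squamous markers summed to 1300, 88.7 and 116 CPM in the same libraries, with KRT5 at 1290, 82.3 and 105 CPM. The part of either epithelium in the level of NQO1 was not tested. In nose libraries NQO1 was at 43.7, 15.6 and 41.2 CPM in DIK and 9.60, 11.3 and 12.8 CPM in WT libraries. No libraries overlapped, but the difference of 1.53 ± 0.84 was not called (adjusted p = 0.162) in the fit that shares 1 spread over all groups. It was 1.47 (adjusted p = 0.00435) when only the nose groups were fitted, and 1.48 (adjusted p = 0.0059) without WT mouth replicate 1. In scrotum libraries NQO1 was at 27.4, 11.8 and 15.6 CPM in DIK and 21.0, 31.0 and 19.1 CPM in WT libraries, with overlapping groups and a difference of −0.36.

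HMOX1 encodes heme oxygenase 1, which degrades heme and is also repressed by BACH1. In scrotum libraries HMOX1 was at 49.5, 67.9 and 20.6 CPM in DIK and 0, 2.45 and 1.76 CPM in WT libraries. The 3 DIK libraries all stood above the WT libraries, which held 19 counts together against 400. HMOX1 rose by 4.84 ± 0.81 (adjusted p = 0.000201), a call kept with any single library left out. In mouth libraries it was at 5.38, 7.29 and 8.53 CPM in DIK and 5.47, 0.523 and 1.84 CPM in WT libraries. WT replicate 1 alone reached the DIK range, the difference of 1.39 ± 0.75 was not called, and without that library HMOX1 rose by 2.62 (adjusted p = 0.0184). At the nose label HMOX1 was at 3.64, 9.69 and 4.37 CPM in DIK and 26.9, 8.03 and 5.56 CPM in WT libraries, with overlapping groups and a difference of −0.81 ± 0.77.

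Some macrophages are rich in heme oxygenase 1. The 8 macrophage markers summed to 110, 187 and 73.8 CPM in DIK scrotum and 109, 106 and 275 CPM in WT scrotum libraries, with MARCO at 0 in both groups. Of 7 tested macrophage markers at the scrotum label, CD68 rose (3.24 ± 0.44) and 6 fell, among them C1QC, which fell by 2.36 (adjusted p = 0.000732). CD68 made up most of the DIK scrotum sums, at 75.7, 154 and 45 CPM, beside 5.45, 6.32 and 17.1 CPM in WT scrotum libraries. The part of macrophages in the HMOX1 difference was not tested. The 6 neutrophil markers summed to 2700 to 20400 CPM in DIK and 20 to 85 CPM in WT libraries. In DIK nose, mouth and scrotum libraries S100A12 alone had means of 8780, 7960 and 11000 CPM, of mean sums of 8870, 8220 and 11200 CPM. The DIK sums thus rest almost wholly on this gene, which made up less of the WT sums (8.16 of 29.4 CPM in WT mouth). The part of neutrophils in any difference of the 9 genes was not tested.

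**Figure D3:**
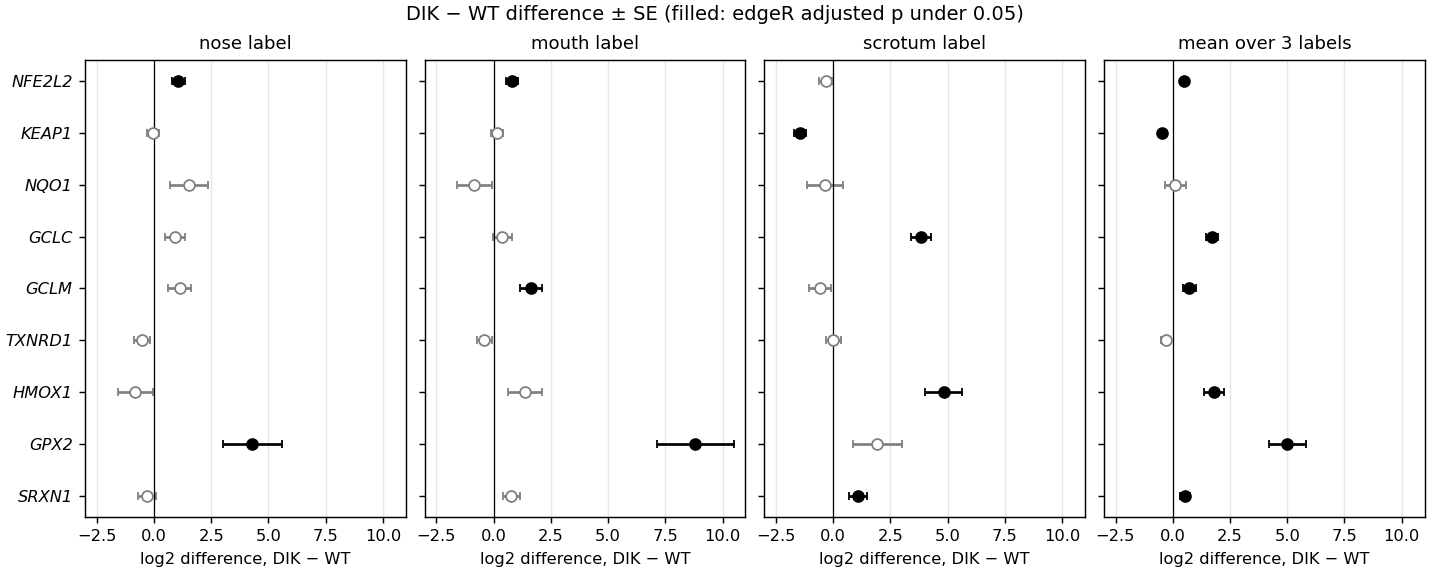
Log2 difference ± SE of DIK minus WT for the 9 genes at each tissue label and for the mean over the 3 labels, with filled points called at an adjusted p under 0.05. GPX2 reaches 8.82 at the mouth label, GCLC and HMOX1 reach 3.83 and 4.84 at the scrotum label, and KEAP1 is called only at the scrotum label and in the mean.

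A pair of WT libraries bore on several of these values at once, WT mouth replicate 1 and WT scrotum replicate 2. Leaving both out was chosen after seeing the data. Without them, 5 of 9 members rose at the nose label, where 48.4% of genes were called and 3199 of 13149 rose. At the mouth label 7 members rose, where 52.3% of genes were called and 3338 rose. At the scrotum label 4 members rose and KEAP1 fell, where 52.5% of genes were called, 3319 higher and 3579 lower. For the mean over labels 7 members rose, NQO1 now among them at 0.89 (adjusted p = 0.00118), KEAP1 fell and TXNRD1 was not called. The background was then 67.5% of genes called, 4304 higher and 4567 lower. The members called at the mouth label were then NFE2L2, NQO1, GCLC, GCLM, HMOX1, GPX2 and SRXN1.

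The difference between genotypes itself differed between labels for 6 of the 9 genes, tested as an interaction. Between the scrotum and nose labels, where 7.65% of all genes were called, GCLC (2.90 ± 0.61, adjusted p = 0.00779) and HMOX1 (5.65 ± 1.11, adjusted p = 0.00745) had larger differences at the scrotum label. NFE2L2 (−1.38 ± 0.40, adjusted p = 0.0401) and KEAP1 (−1.40 ± 0.37, adjusted p = 0.0275) had lower ones. Between the scrotum and mouth labels, where 13.1% of genes were called, GCLC was again larger at the scrotum label (3.44 ± 0.60, adjusted p = 0.000908), and KEAP1 (−1.62 ± 0.36, adjusted p = 0.00612), GCLM (−2.22 ± 0.69, adjusted p = 0.0379) and GPX2 (−6.90 ± 1.98, adjusted p = 0.035) were lower. These 2 contrasts share the scrotum libraries. Between the mouth and nose labels edgeR called 0 of 9 members, 0 had an unadjusted p under 0.05 and DESeq2 called 0, beside 8.6% of all genes. The calls of GCLC in both contrasts, HMOX1 against the nose label and KEAP1 against the mouth label were kept with any single library left out. The others were not: the GPX2 value was −1.88 (adjusted p = 0.49) without WT scrotum replicate 2, and those of NFE2L2, KEAP1 against the nose label and GCLM lost their calls with 11, 7 and 9 of the 18 libraries left out in turn.

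Within the tumours, GCLC and HMOX1 set the scrotum label apart. GCLC was higher in DIK scrotum than in DIK nose by 1.68 ± 0.40 (adjusted p = 0.0171) and than in DIK mouth by 2.70 ± 0.42 (adjusted p = 0.00103), and its 3 libraries there lay above the other 6 DIK libraries. HMOX1 was higher by 2.98 ± 0.70 (adjusted p = 0.0209) and 2.71 ± 0.69 (adjusted p = 0.0461). The backgrounds were low, 5.84% of genes called between scrotum and nose tumours and 2.88% between scrotum and mouth tumours. Against the nose label the GCLC call was lost without DIK nose replicate 1 (0.107), DIK nose replicate 3 (0.091) or DIK scrotum replicate 2 (0.102), and the HMOX1 calls were lost without any of several libraries, with differences between 2.32 and 3.53 over the libraries left out. Between mouth and nose tumours, where 1.54% of genes were called, edgeR and DESeq2 called 0 of 9 members. SRXN1 (1.11) and GCLC (−1.02) had an unadjusted p under 0.05 there.

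Within WT tissue, NFE2L2, KEAP1, GCLM and GPX2 were higher at the scrotum than at the mouth label, where 23% of genes were called. KEAP1 differed by 1.26 ± 0.25 (adjusted p = 0.00116), GCLM by 1.96 ± 0.49 (adjusted p = 0.00661) and NFE2L2 by 0.96 ± 0.28 (adjusted p = 0.0171), and the WT scrotum libraries lay above all WT mouth libraries for each. GPX2 differed by 6.20 ± 1.65 (adjusted p = 0.0151) and by 1.18 (adjusted p = 0.613) without WT scrotum replicate 2. The NFE2L2 call was lost without WT scrotum replicate 2 (0.0779) or WT mouth replicate 1 (0.0503). NQO1 was higher in WT mouth than WT nose by 2.61 ± 0.85 (adjusted p = 0.0448, background 19.8%), with overlapping libraries. This NQO1 call was lost with 15 of the 18 libraries left out in turn, at differences of 2.55 to 2.72 except for WT mouth replicate 1, without which it was 0.37 (adjusted p = 0.602), and with the replicate block (1.96, adjusted p = 0.102). Between WT scrotum and WT nose (background 6.05%) edgeR called 0 of 9 members, 4 had an unadjusted p under 0.05, and DESeq2 called NFE2L2 higher and HMOX1 lower.

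Ordered by mean level, NFE2L2 ran from 49.2 ± 2.3 CPM (SD, n = 3) in WT mouth through 53.1 ± 11.7 in WT nose, 76.2 ± 13.1 in DIK scrotum, 86.2 ± 5.02 in DIK mouth and 95.6 ± 29.5 in WT scrotum to 109 ± 33.9 CPM in DIK nose libraries. Only the step from WT nose to DIK scrotum exceeded the SD of both neighbours. For GPX2 the order was WT mouth (0.233 ± 0.267 CPM), WT nose (6.71 ± 4.67), WT scrotum (16.3 ± 27.2), DIK scrotum (64.1 ± 30.9), DIK mouth (104 ± 28.2) and DIK nose (110 ± 45.0 CPM). The libraries of the 3 DIK groups of GPX2 overlapped each other.

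The other members had different orders. GCLC ran from WT scrotum (5.09 ± 2.66 CPM, SD, n = 3) through WT mouth (8.64 ± 5.92), DIK mouth (11.5 ± 1.46), WT nose (13.2 ± 3.85) and DIK nose (23.5 ± 9.08) to DIK scrotum (75.1 ± 15.8 CPM), and the last 2 steps exceeded the SDs of both neighbours. HMOX1 ran from WT scrotum (1.40 ± 1.26) through WT mouth (2.61 ± 2.56), DIK nose (5.90 ± 3.30), DIK mouth (7.07 ± 1.59) and WT nose (13.5 ± 11.7) to DIK scrotum (46.0 ± 23.8), again with a last step above both SDs. KEAP1 was lowest in DIK scrotum (14.3 ± 1.43) and highest in WT scrotum (39.8 ± 13.0), with the other 4 group means between 16.5 and 22.3 CPM. GCLM was lowest in WT mouth (2.17 ± 1.48) and highest in DIK nose (12.4 ± 5.27), with WT scrotum next at 9.32 ± 4.78 and within its spread. NQO1 had its highest mean in WT mouth (70.7 ± 96.8), set by replicate 1, and its lowest in WT nose (11.2 ± 1.61). SRXN1 was highest in DIK mouth (57.6 ± 15.5) and DIK scrotum (50.4 ± 16.4), with the other 4 means between 23.6 and 33.5 CPM. The 6 means of TXNRD1 lay between 16.2 and 31.5 CPM, the narrowest relative range of the 9 genes.

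By root mean square difference of mean-centred log2 CPM over the 6 group means, the genes closest to NFE2L2 among 8106 candidates were TTC39C (0.11), RPLP2 (0.117) and MRPS18C (0.125). Those closest to NQO1 were SIAH1 (0.178), NVL (0.188) and PARP4 (0.22).

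The wider pathway was followed in 7 lists with 87 tested genes, chosen with earlier results of these data known. At the nose label 19 of the 87 rose and 26 fell, at the mouth label 20 rose and 25 fell, and at the scrotum label 23 rose and 23 fell. The shares called were 51.7%, 51.7% and 52.9%, somewhat above the backgrounds of 42.1%, 46.9% and 43.5% and divided between both directions. The lists differed in direction.

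**Figure D4:**
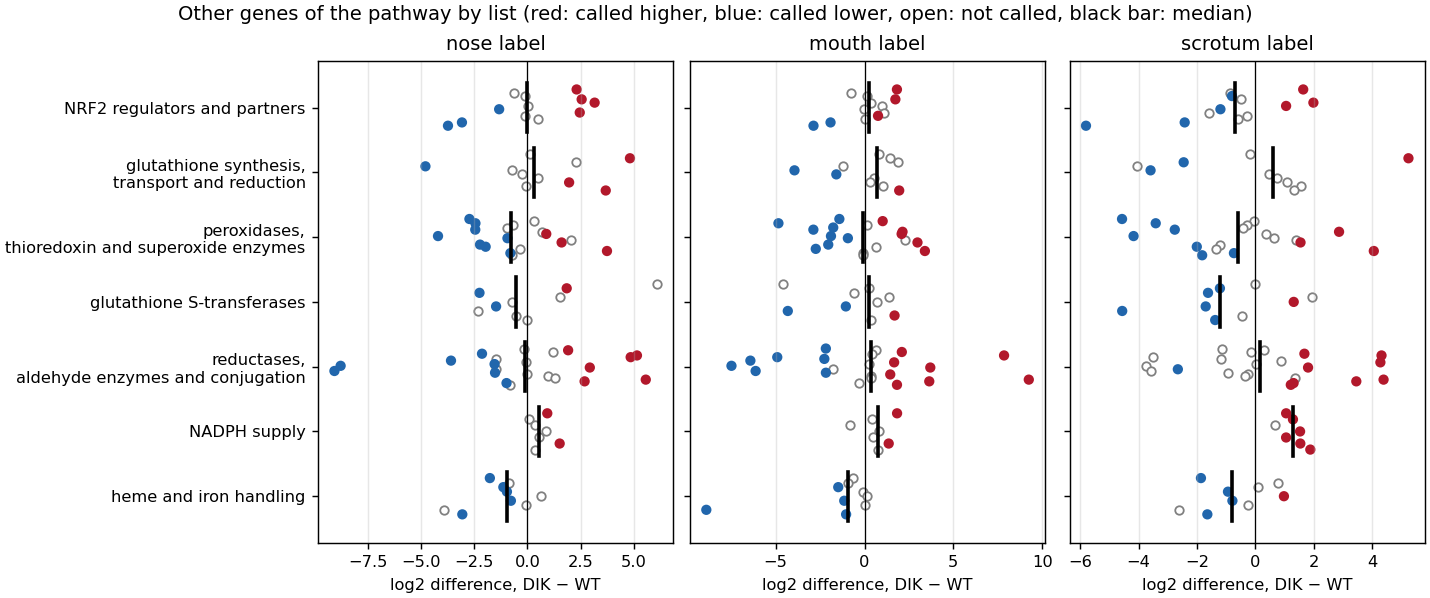
Log2 difference of DIK minus WT for the tested genes of 7 pathway lists at each tissue label (axes differ between labels), red for called higher, blue for called lower, open for not called and a black bar for the list median; genes with 3 or fewer counts in a group are drawn at their fitted value. All 7 NADPH supply genes lie above 0 at the nose and scrotum labels, and most heme and iron genes lie below 0.

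Of 12 regulators and partners of NRF2, 4 rose and 3 fell at the nose label, 3 rose and 2 fell at the mouth label, and 3 rose and 4 fell at the scrotum label, with medians of −0.03, 0.25 and −0.70. BACH1, which represses HMOX1 and other NRF2 targets, rose at all 3 labels, by 2.32 ± 0.37, 1.82 ± 0.36 and 1.63 ± 0.36. CUL3, the scaffold of the ligase that KEAP1 serves, rose at the nose label (2.55 ± 0.39, adjusted p = 5.71e-05) and the mouth label (1.73 ± 0.36, adjusted p = 0.000656). SQSTM1, the autophagy receptor that draws KEAP1 away from NRF2 and is itself a target, fell by 3.07 ± 0.36, 1.91 ± 0.35 and 2.42 ± 0.35. TXNIP, the inhibitor of thioredoxin, fell by 3.73 ± 0.45, 2.87 ± 0.43 and 5.80 ± 0.50. NFE2L1, a relative of NRF2, fell by 1.20 ± 0.24 at the scrotum label.

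Of 10 genes of glutathione synthesis, transport and reduction, 3 rose and 1 fell at the nose label, and 1 rose and 2 fell at each of the other labels, with medians of 0.31, 0.68 and 0.59. SLC7A11, the cystine importer that supplies glutathione synthesis, rose by 3.68 ± 0.77 at the nose label (adjusted p = 0.00106) and 1.95 ± 0.60 at the mouth label (adjusted p = 0.0124). CHAC1, an enzyme that degrades glutathione, rose by 5.23 ± 1.16 at the scrotum label (adjusted p = 0.00264) and by 4.82 ± 1.46 at the nose label (adjusted p = 0.0173). The nose call of CHAC1 was lost without DIK nose replicate 2 (3.22, adjusted p = 0.0898), WT nose replicate 2 (0.0722) or WT nose replicate 3 (0.0869). GGT5, a glutamyl transferase, fell by 3.94 ± 0.63 at the mouth label and fell by 3.59 ± 0.66 at the scrotum label.

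Among 18 peroxidases, thioredoxin and superoxide enzymes, genes that fell outnumbered those that rose, 8 against 3 at the nose label, 8 against 5 at the mouth label and 7 against 3 at the scrotum label. The medians were −0.76, −0.08 and −0.58. TXN, thioredoxin itself, rose at all labels, by 3.74 ± 0.43, 3.39 ± 0.42 and 4.05 ± 0.43, while its reductase TXNRD1 was not called. PRDX2 (2.09 ± 0.26) and PRDX6 (2.98 ± 0.40), both peroxiredoxins, rose at the mouth label. GPX3, the plasma glutathione peroxidase, fell by 2.44 ± 0.36, 4.84 ± 0.39 and 3.41 ± 0.36, opposite in direction to GPX2. Catalase (CAT) fell at all 3 labels, by 2.72 ± 0.52, 1.42 ± 0.50 and 4.56 ± 0.58. PRDX3, the mitochondrial peroxiredoxin, fell by 4.20 ± 0.51, 1.89 ± 0.47 and 4.17 ± 0.52. Skeletal muscle sums in WT libraries were lower at the mouth label than at the other labels, and smooth muscle sums were higher there. The part of either muscle in these values was not tested.

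Of 9 tested glutathione S-transferases (16 listed), 1 rose and 2 fell at the nose label, 1 rose and 2 fell at the mouth label, and 1 rose and 5 fell at the scrotum label, with medians of −0.52, 0.23 and −1.22. GSTA4 rose by 1.85 ± 0.39 at the nose label, and MGST3 fell by 1.38 ± 0.25 at the scrotum label. GSTK1 fell by 2.25 ± 0.41 at the nose and 1.62 ± 0.42 at the scrotum label. Near-identical copies in this family could have split reads, so its values are uncertain.

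In the list of 22 reductases, aldehyde enzymes and conjugation genes, 6 rose and 7 fell at the nose label, 8 rose and 7 fell at the mouth label, and 8 rose and 1 fell at the scrotum label, with medians of −0.11, 0.38 and 0.16. AKR1B1, an aldo-keto reductase, rose at all labels, by 5.15 ± 0.51, 7.85 ± 0.58 and 4.31 ± 0.49. TRIM16, a ubiquitin ligase known to act on the KEAP1-NRF2 axis, rose by 2.69 ± 0.28, 3.64 ± 0.26 and 3.45 ± 0.26. SULT2B1, a sulfotransferase of squamous epithelium, held 1526 counts in DIK and 3 in WT mouth libraries, a ratio of 727 with a 95% counting interval of 248 to 3530. NQO2, the paralog of NQO1, fell by 2.17 ± 0.41 at the mouth label (adjusted p = 0.000363). EPHX1 fell by 9.06 ± 1.55 at the nose label (adjusted p = 0.000493), with 14 counts in DIK and 4933 in WT nose libraries. AKR1A1, another aldo-keto reductase, fell by 2.13 ± 0.34 at the nose label and rose by 1.67 ± 0.34 at the scrotum label.

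The NADPH supply list, whose enzymes provide the electrons for glutathione and thioredoxin reduction, had most of its calls at the scrotum label. Of 7 tested genes, 2 rose and 5 were not called at the nose label, the same counts held at the mouth label, and 6 rose and 1 was not called at the scrotum label. The backgrounds of higher calls were 21.9%, 22.7% and 19.4%. The medians were 0.55, 0.73 and 1.28. TALDO1 rose at all labels, by 1.52 ± 0.38, 1.36 ± 0.38 and 1.53 ± 0.38. TKT (1.88 ± 0.36), PGD (1.53 ± 0.34) and PGLS (1.05 ± 0.26), all of the pentose phosphate pathway, rose at the scrotum label, and IDH1 rose at the mouth label (1.83 ± 0.33). IDH1 also rose at the nose label (0.94 ± 0.33, adjusted p = 0.0303), a call lost with 4 of the 18 libraries left out in turn.

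Of 9 heme and iron genes, 5 fell at the nose label, 4 fell at the mouth label, and 4 fell and 1 rose at the scrotum label, with medians of −0.96, −0.95 and −0.79. The iron exporter SLC40A1 fell by 3.05 ± 0.43 at the nose label and 1.65 ± 0.45 at the scrotum label. SLC40A1 also fell at the mouth label (−1.04 ± 0.39, adjusted p = 0.0347), a call lost with 2 of the 18 libraries left out in turn. FECH, which inserts iron into heme, fell by 0.96 ± 0.28 at the nose and 0.94 ± 0.27 at the scrotum label, and FTL, ferritin light chain, fell by 1.14 ± 0.30 at the mouth label. FTL also fell at the nose label (−0.77 ± 0.30, adjusted p = 0.045), a call lost with 13 of the 18 libraries left out in turn. HPX, hemopexin, held 1 count in DIK and 1055 in WT mouth libraries, a ratio of 738 with a 95% counting interval of 132 to 29200. HMOX1 at the scrotum label thus rose beside a list in which most called genes fell, and erythrocyte markers there summed to 7.87 to 208 CPM in DIK and 56.4 to 433 CPM in WT libraries.

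**Figure D5:**
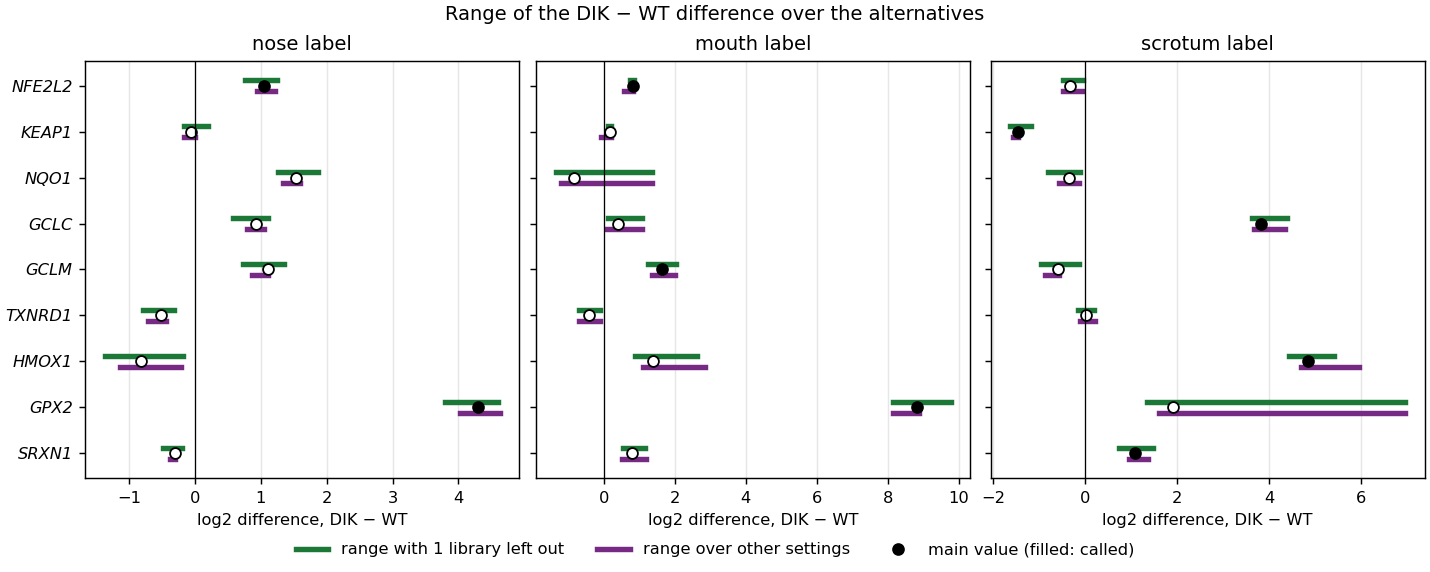
Range of the DIK minus WT log2 difference of each gene when 1 library is left out (green) and over the other settings (purple), by tissue label, with the reported value as a point that is filled where called. GPX2 at the scrotum label reaches 6.95 and NQO1 at the mouth label changes sign, while GCLC and HMOX1 at the scrotum label stay above 3.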

How the data were processed

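Per the labels' protocols, RNA of pig tissue stored in RNAlater was isolated using TRIzol, and messenger RNA libraries were built (VAHTS mRNA-seq V3). The submitters' processing notes list fastp, HISAT2 (2.1.0) and HTSeq (0.11.2). No source used here states the build, annotation or strand setting, so coordinates and sequences are not printed and antisense reads cannot be separated from a gene's own. The values are whole-number read counts per gene, deposited by the authors without normalization. All 9 symbols, and 26838 of 27339 in the table, matched RefSeq names of the Sscrofa11.1 assembly. Columns were assigned to samples by name.

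Differences were estimated with TMM scaling and the robust quasi-likelihood fit of edgeR 4.0.16 (R 4.3.3). Each of 6 groups had its own mean, and 18 libraries shared 1 spread, with a common biological coefficient of variation of 36.1%. The default filter (minimum count 10, minimum total 15) left 12895 genes, over which p-values were adjusted (Benjamini-Hochberg) in each contrast. SE is |log2 difference| over the root of the F statistic. The contrasts compared DIK with WT at every label and averaged over 3 labels, these differences between labels, and labels within a genotype. For a group with 1 to 3 counts, a ratio has an exact 95% interval. The script was tested on simulated data.

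The members, the pathway and marker lists and the tests were chosen with earlier results of these data known. Named are all members, up to 4 genes per pathway list and label with the smallest adjusted p (those printed were picked knowing how they depend on the processing), and for NFE2L2 and NQO1 the 3 genes of closest pattern with at least 10 CPM in the highest group. Alternatives covered scalings, filters, DESeq2 1.42.0, limma-voom (limma 3.58.1) with quality weights, smaller fits, a replicate block, stricter thresholds and left-out libraries.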

Additional observations from a re-analysis of the deposited data

Results flagged for a closer look

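The difference between DIK tumours and WT tissue differed between tissue labels for 6 of the 9 genes, by an interaction term in edgeR's quasi-likelihood fit with Benjamini-Hochberg adjustment over all tested genes. These 6 are taken over all contrasts together. Between the scrotum and nose labels 4 members were called, beside 7.65% of all genes. Between the scrotum and mouth labels 4 were called, beside 13.1%, and between the mouth and nose labels 0, beside 8.6%. Between the scrotum and nose labels the values were −1.38 ± 0.40 for NFE2L2 (adjusted p = 0.0401), −1.40 ± 0.37 for KEAP1 (0.0275), 2.90 ± 0.61 for GCLC (0.00779) and 5.65 ± 1.11 for HMOX1 (0.00745). Between the scrotum and mouth labels they were −1.62 ± 0.36 for KEAP1 (0.00612), 3.44 ± 0.60 for GCLC (0.000908), −2.22 ± 0.69 for GCLM (0.0379) and −6.90 ± 1.98 for GPX2 (0.035). Both sets share the scrotum libraries, whose label, like that of the mouth libraries, goes against the posterior HOX genes. GCLC and HMOX1 were higher in all 3 DIK scrotum libraries than in all 6 other DIK libraries. For KEAP1 the WT scrotum libraries were the 3 highest of the series, and DIK scrotum replicates 2 and 3 were the lowest. The GPX2 value rests on WT scrotum replicate 2 and was −1.88 without it. The values of NFE2L2, KEAP1 against the nose label, GCLM and GPX2 lost their calls with 11, 7, 9 and 12 of the 18 libraries left out in turn, with adjusted p-values up to 0.134 for NFE2L2 and 0.104 for GCLM.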

How the results depend on the processing

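Over the alternatives for the 9 members at the 3 labels, 777 of 837 recomputed values kept direction and side of the threshold, 18 lost a call, 26 gained one and 16 changed sign. The cause was not tested in any case. At the nose label the number of members called was 2, and 4 with limma-voom, 5 with only the groups compared, 1 at an adjusted p under 0.01 (3617 genes called) and 5 without WT mouth 1 and WT scrotum 2. At the mouth label it was 3, and 6 with limma-voom, 1 at an adjusted p under 0.01 and 7 without those libraries. For the mean over labels it was 7, and 4 with library size alone, 4 at an adjusted p under 0.01 and 3 with at least a 2-fold change (5440 genes called). The number of all genes called moved as well over the settings. It ran from 3617 to 6366 at the nose label (5426 in the main fit) and from 4207 to 7580 at the mouth label (6054). For the mean it ran from 5440 to 9270 (8272). Without WT mouth 1 and WT scrotum 2, 48.4% of all genes were called at the nose label and 52.3% at the mouth label. DESeq2 called 3 members in WT mouth minus WT nose and 2 in WT scrotum minus WT nose.

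With 1 library left out, members called ranged from 1 to 4 at the nose label, 2 to 6 at the mouth label, 3 to 5 at the scrotum label and 5 to 8 for the mean. In the same order, all genes called ranged from 4156 to 5997, 5061 to 6705, 4469 to 6568 and 7922 to 8770. The ranges of members called were 0 to 1, 2 to 5 and 2 to 5 for the interactions mouth minus nose, scrotum minus nose and scrotum minus mouth. They were 0 to 3, 0 to 2 and 2 to 5 for WT mouth minus nose, scrotum minus nose and scrotum minus mouth, and 0 to 0, 0 to 2 and 1 to 2 for the same pairs of DIK groups. With all libraries, the shares of all genes called were 8.6%, 7.65% and 13.1% for the interactions. In the same order, the shares were 19.8%, 6.05% and 23% for the WT pairs and 1.54%, 5.84% and 2.88% for the DIK pairs.

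Several signs changed. TXNRD1 at the scrotum label was −0.066 with upper-quartile scaling, −0.12 with library size alone, −0.0096 without a filter, −0.041 at 10 CPM in 3 libraries, −0.032 with only the groups compared, −0.012 with the replicate block and −0.16 to 0.19 with 1 library left out. KEAP1 was −0.093 at the mouth label with library size alone and −0.17 to 0.20 at the nose label with 1 library left out. NQO1 at the mouth label was 0.84 with limma-voom, 1.35 without WT mouth 1 and WT scrotum 2, and −1.35 to 1.35 with 1 library left out, and its mean over labels was −0.059 with library size alone and −0.059 to 0.82 with 1 library left out. GGCT at the scrotum label, −2.46 with all libraries, was −2.95 to 0.24 with 1 library left out, 0.22 without WT nose 1 and WT scrotum 2, and 0.20 without WT mouth 1 and WT scrotum 2.

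Library size alone moved the median difference of all genes to −0.29 at the mouth and −0.21 at the scrotum label, and the share of higher calls at the mouth label from 48.2% to 36.1%. DIK and WT libraries of the same label and replicate number did not deviate together (9 pairs, correlations of −0.0483 to 0.0886, 2 of 9 best with their own number). The numbers were therefore not used to pair DIK with WT libraries. All DIK libraries come from 1 founder. Whether WT libraries with the same number at different labels share an animal was not tested. The replicate block left 1 of 2 calls in DIK scrotum minus DIK mouth and moved no other count of members called by over 1.5 times. At 418665 counts, WT nose replicate 1 limits the low genes: 3 counts are 5.76 CPM there.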
